A study of Homo sapiens with 4 samples.

Results

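The comparison is of 2 RNA libraries, SKOV3 cells treated with YY-15 and untreated SKOV3 cells, over every gene whose FPKM was 1 or higher in either of them. FPKM counts fragments per kilobase of transcript after scaling by library size. This took 13294 of the 38558 genes in the deposited table. SKOV3 is an established human ovarian cancer line grown in 5A medium with serum, known for high ERBB2. YY-15 is a compound given by code name only, and the sources used here give neither its structure nor its target. The treated cells were collected after 48 h, and the column headings of the table give the dose as 4 µM. The control cells received no drug, per the labels. Groups were read from the sample titles and descriptions, since entries in some other label fields appear shifted, and the sources used here do not say how many cultures went into a library. The study also holds ES2, another human ovarian cancer line, with and without YY-15, and each of the 4 groups is 1 library.

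With 1 library a side there is no replicate check and nothing was tested: every value below compares this pair of libraries, and the spread between cultures is unknown. The estimated counts summed to 67431058 in the control and 62522202 in the YY-15 library. The size of a difference is log2((YY-15 FPKM + 1)/(control FPKM + 1)), called the log2 ratio here, and with its added 1 it is closer to 0 than the true ratio where FPKM is low. Square brackets hold the exact 95% interval for the log2 ratio of each library's share of estimated counts. These intervals cover counting error only, and since they carry no pseudocount they can lie beyond the log2 ratio. Where values stand as a pair joined by against, the control comes first, and a number in parentheses after a level is the log2 ratio. The levels of line markers matched the label for some genes only. ERBB2, the receptor kinase amplified in SKOV3, was at 152 FPKM in the control and 143 with YY-15, and the ovarian lineage factor gene PAX8 was at 37.4 and 43.7. Of 21 line and carcinoma markers, 13 passed the filter, while CDH1, MUC16, MSLN, WFDC2, WT1, CLDN3, EMX2 and LHX9 were under 1 FPKM in both libraries. Markers of other cell types were mostly under the filter: 1 of 12 leukocyte, 3 of 10 fibroblast and 1 of 8 endothelial markers passed it, and the pan-leukocyte gene PTPRC stood at 0 and 0.00591 FPKM.

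Several stress and growth programmes are background to the genes below. When amino acids run short or proteins misfold, kinases that phosphorylate eIF2 alpha slow general translation, while the transcription factor ATF4 is still made and switches on genes of amino acid supply, tRNA charging and growth restraint. NF-kB drives cytokine and chemokine genes, and ERK signalling switches on phosphatases and Sprouty proteins that restrain it. Cells that divide express replication genes under E2F factors as they enter S phase and mitotic genes later, under complexes that bind CHR elements, and heat shock factor keeps cytosolic chaperone genes active.

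Most genes differed little between the libraries. The median log2 ratio over all 13294 genes was 0.02, and 8618 genes (64.8%) lay within 1.25-fold. A difference of 2-fold or more in either direction was seen for 2.97% of genes. It was higher in the YY-15 library for 221 genes, 1.66%, and lower for 174 genes, 1.31%. These shares are the background for every list below. At 1.5-fold the counts were 916 higher and 756 lower. Of the higher genes, 62 passed the filter through the YY-15 library only, and of the lower genes 54 passed through the control only, so the filter itself favoured a difference in them. Log2 ratios were lower on average for more abundant genes. The median was 0.07 for genes with a mean under 2 FPKM, 0.01 at 5 to 20 FPKM, -0.07 at 20 to 100 FPKM and -0.15 at 100 FPKM or more. The lists of abundant genes below (tubulin, proteasome, glycolysis, respiration) are to be read beside these values, and the part of this trend in them was not tested. Of 1135 long non-coding RNA genes 720 were above 0, and their median was 0.13, against 0.01 for protein-coding genes.

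**Figure D1:**
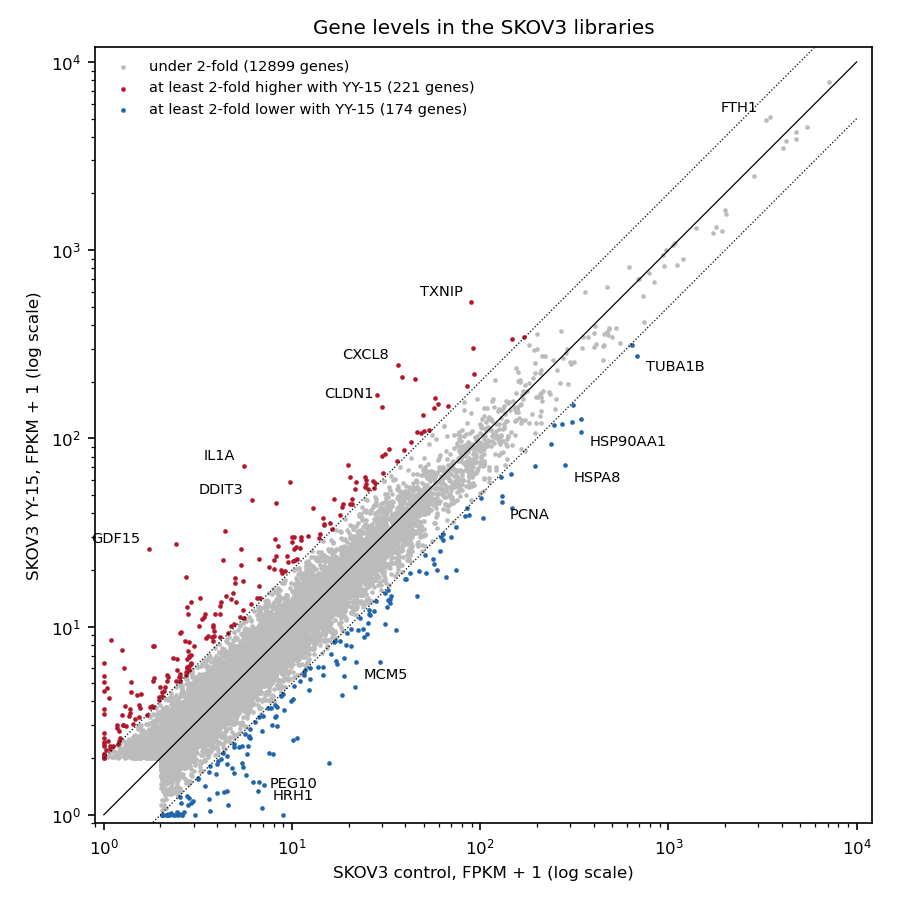
Level of each of the 13294 genes in the SKOV3 control (x axis) and SKOV3 YY-15 library (y axis), as FPKM + 1 on log scales, 1 point a gene. The solid line marks equal values and the dotted lines 2-fold. The 221 genes in red lie on or above the upper dotted line and the 174 in blue on or below the lower one.

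Genes of the ATF4 programme were among the highest with YY-15. Of 13 stress transcription factor and regulator genes, 7 were at least 2-fold higher and none lower, with a median of 1.16; 3 of the 13 passed the filter through the YY-15 library only. ATF4 itself was at 84.3 FPKM in the control and 189.7 with YY-15, a log2 ratio of 1.16 [1.15 to 1.2]. CEBPB and CEBPG, whose products pair with ATF4 on DNA, went from 30.3 to 81.4 (1.4) and from 10.1 to 28.8 FPKM (1.42) between control and treated library. The downstream factor genes had larger ratios. NUPR1, a small stress-induced chromatin protein gene, was at 0.829 against 6.85 FPKM (2.1 [2.88 to 3.22]). ATF3, a repressor of the same bZIP family, was at 0.844 against 6.87 FPKM (2.09). TRIB3, a pseudokinase that binds ATF4, was at 8.71 against 57.9 FPKM (2.6). DDIT3, encoding the death-promoting factor CHOP, was at 5.12 against 46 FPKM (2.94 [3.02 to 3.3]). ATF5, another factor of the programme, was lower, at 7.3 against 5.83 FPKM (-0.28). Of 39 measured genes that the deposited table puts in the bZIP family, which includes several of these, 8 were at least 2-fold higher and none lower, with a median of 0.49.

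The kinases upstream of ATF4 were not higher at the RNA level. None of 9 genes of the eIF2 alpha kinases and their relay reached 2-fold, and their median was -0.13. EIF2AK3 (PERK), the kinase of the endoplasmic reticulum, was at 1.64 FPKM in the control and 1.42 with YY-15. EIF2AK4 (GCN2), which senses uncharged tRNA, was at 16.3 and 15.4, and EIF2AK1 (HRI), which receives mitochondrial stress through DELE1, at 22 and 17.8. Genes that restrain growth under stress were higher: 7 of 12 measured members (15 listed) by 2-fold or more, with a median of 1.32 and 1 member that passed through the YY-15 library only. CHAC1, which degrades glutathione, had the highest ratio of this list, at 1.43 against 26.5 FPKM (3.5 [4.01 to 4.42]). GADD45A, a stress sensor gene, was at 37.2 against 211 (2.47). DDIT4, an inhibitor of mTORC1, stood at 90.4 against 299 FPKM (1.72), and SESN2, another mTORC1 inhibitor that senses leucine, at 4.36 against 20.3 (1.99). PPP1R15A (GADD34), which guides the phosphatase that resets eIF2 alpha, was at 7.2 against 44.2 FPKM (2.46), while its constitutive relative PPP1R15B was at 7.2 against 9.71 (0.39). GADD45B, a relative of GADD45A, and STC2, a secreted glycoprotein gene, had ratios of 1.31 and 1.32. DDIT4L, GADD45G and SESN3 were under the filter.

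Promoter sequence was looked at for the pattern that defines this programme. The composite C/EBP-ATF element is bound by ATF4 with a C/EBP partner. It was searched as TGATGNAA on both strands in RefSeq promoters (GRCh38.p14, 250 bases before to 50 after each start), which were found for 9632 of the measured genes (72.5%). The letters occurred in 1.55% of these promoters, in 6.61% of the 121 with genes at least 2-fold higher and in 0 of the 87 with lower genes. They occurred in 6 of 19 cytosolic aminoacyl-tRNA synthetase promoters and 4 of 15 of the amino acid synthesis list. Of 150 matches 1 shared a base with a match of another of the 5 motifs for which stretches are printed. In all 10 motifs were searched. Among the others, TATAAA occurred in 5.15% of all promoters and 15.7% of those of higher genes, and the AP-1 element TGANTCA in 4.26% and 9.09%, so higher shares among higher genes were not limited to the elements shown. CCAAT (37% and 40.5%), the cyclic AMP element TGACGTCA (3.34% and 4.13%) and the E-box CACGTG (10% and 10.7%) differed less. These pairs compare all promoters with those of higher genes only. Among the 87 promoters of lower genes the shares, in the order named, were 8.05%, 8.05%, 50.6%, 2.3% and 9.2%. For the AP-1 element the share was thus above that of all promoters among lower genes too. The share of 50.6% was above both values given for that element. The stretches around the match are shown for the genes with the highest ratios of the growth restraint and the amino acid synthesis lists, with the match in capitals.
CHAC1: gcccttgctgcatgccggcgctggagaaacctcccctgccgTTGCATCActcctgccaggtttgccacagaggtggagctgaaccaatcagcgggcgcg
ASNS: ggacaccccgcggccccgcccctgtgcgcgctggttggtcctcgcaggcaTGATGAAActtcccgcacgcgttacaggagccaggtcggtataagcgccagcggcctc
The CHAC1 stretch is chr15:40953221-40953319 (plus strand), and its match, on the opposite strand, begins 209 bases before the start. The ASNS stretch is chr7:97872419-97872526 (minus strand), with the match 68 bases before the start. A match is a description of the letters, not evidence of binding.

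Amino acid transporter genes were higher for some carriers and not for others. Of 16 measured transporter genes (21 listed), 5 were at least 2-fold higher and none lower, with a median of 0.64 and 1 that passed through the YY-15 library only. With no filter the median over all 21 was 0.17. SLC1A5, which carries glutamine, was at 48.5 FPKM in the control and 132 with YY-15 (1.43 [1.42 to 1.49]). SLC3A2, the heavy chain shared by several exchangers, was at 38.2 and 86 (1.15), and its leucine-carrying partner SLC7A5 at 95.3 and 161 (0.75). The system A genes SLC38A2 and SLC38A1 had ratios of 1.14 and 1.02, and SLC43A1, a facilitator of neutral amino acids, 1.08. The cystine carrier SLC7A11 was at 15.6 against 26.6 FPKM (0.74), under 2-fold. SLC6A6, the taurine carrier, was at 6.69 against 4.5 (-0.48).

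Synthesis enzymes divided by branch. Of 23 measured genes of serine, glycine, proline and asparagine synthesis, 7 were at least 2-fold higher and none lower, with a median of 0.40. ASNS, asparagine synthetase, had the highest ratio, 4.34 against 24.9 FPKM (2.28 [2.44 to 2.6]); a measured gene of the same strand overlaps it, which makes it uncertain to that extent. The serine branch was represented by PHGDH (1.45 against 4.86, 1.25), PSAT1 (56.4 against 163 FPKM, 1.51) and PSPH (0.80). The mitochondrial folate enzyme gene MTHFD2 stood at 7.45 against 25.9 FPKM (1.67) and SHMT2 at 26.1 against 53.7 (1.01). Their cytosolic counterparts lay on the other side of 0, with MTHFD1 at 6.26 against 4.0 FPKM (-0.54) and SHMT1 at 7.68 against 5.8 (-0.35). CBS, which starts transsulfuration, had 1.5 and GPT2, the mitochondrial alanine transaminase gene, 1.11. Proline synthesis was mixed: PYCR1, the last step, had 0.93, while ALDH18A1, the first, had -0.40. PCK2, the mitochondrial phosphoenolpyruvate carboxykinase gene, stood at 3.29 against 21.6 FPKM (2.4 [2.62 to 2.81]). It was the only one of 26 citrate cycle and anaplerosis genes to reach 2-fold, and the median of that list was -0.18.

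Genes of tRNA charging differed between the list called cytosolic and the mitochondrial list. Among 23 cytosolic aminoacyl-tRNA synthetase and cofactor genes, 6 were at least 2-fold higher, none lower, and the median was 0.29. They were AARS1 (15.8 against 46.3 FPKM, 1.49), YARS1 (13.6 against 36.6, 1.36), CARS1 (5.7 against 15.5, 1.3), SARS1 (49.2 against 109, 1.13), GARS1 (5.04 against 12.1, 1.12) and MARS1 (19.9 against 44, 1.11). HARS1, RARS1, QARS1 and KARS1 were between -0.27 and -0.12. None of 17 mitochondrial synthetase genes reached 2-fold, their median was -0.18 and 14 were below 0, while the highest had a ratio of 0.73. The same amino acid showed both signs for alanine, where AARS2 was at 8.15 against 5.08 FPKM (-0.59), and for serine, where SARS2 was at 10.0 against 8.23 (-0.26).

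Ribosomal protein genes barely differed, with medians of 0.08 over 43 large subunit genes and 0.04 over 32 small subunit genes, and none reached 2-fold. Mitochondrial ribosomal protein genes were slightly lower, with 56 of 74 below 0 and a median of -0.15. Among 36 initiation factor genes, 2 were at least 2-fold higher: EIF1, which guards start codon choice, at 91.7 against 219.6 FPKM (1.25), and EIF4EBP1, a repressor of cap-dependent initiation, at 47.7 against 105 (1.13). Host genes of small nucleolar RNAs were higher, with 18 of 19 measured members (22 listed) above 0, 5 at least 2-fold higher and a median of 0.63; 2 members passed through the YY-15 library only. The spliced RNAs of these genes are known to be removed by nonsense-mediated decay when translation is active. GAS5 was at 9.02 FPKM in the control and 29 with YY-15 (1.58), SNHG1 at 28.9 and 79.8 (1.44), and ZFAS1 and SNHG32 had ratios of 1.28 and 1.27. The decay factor genes themselves had a median of -0.01 over 15, with RBM8A at -0.93.

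**Figure D2:**
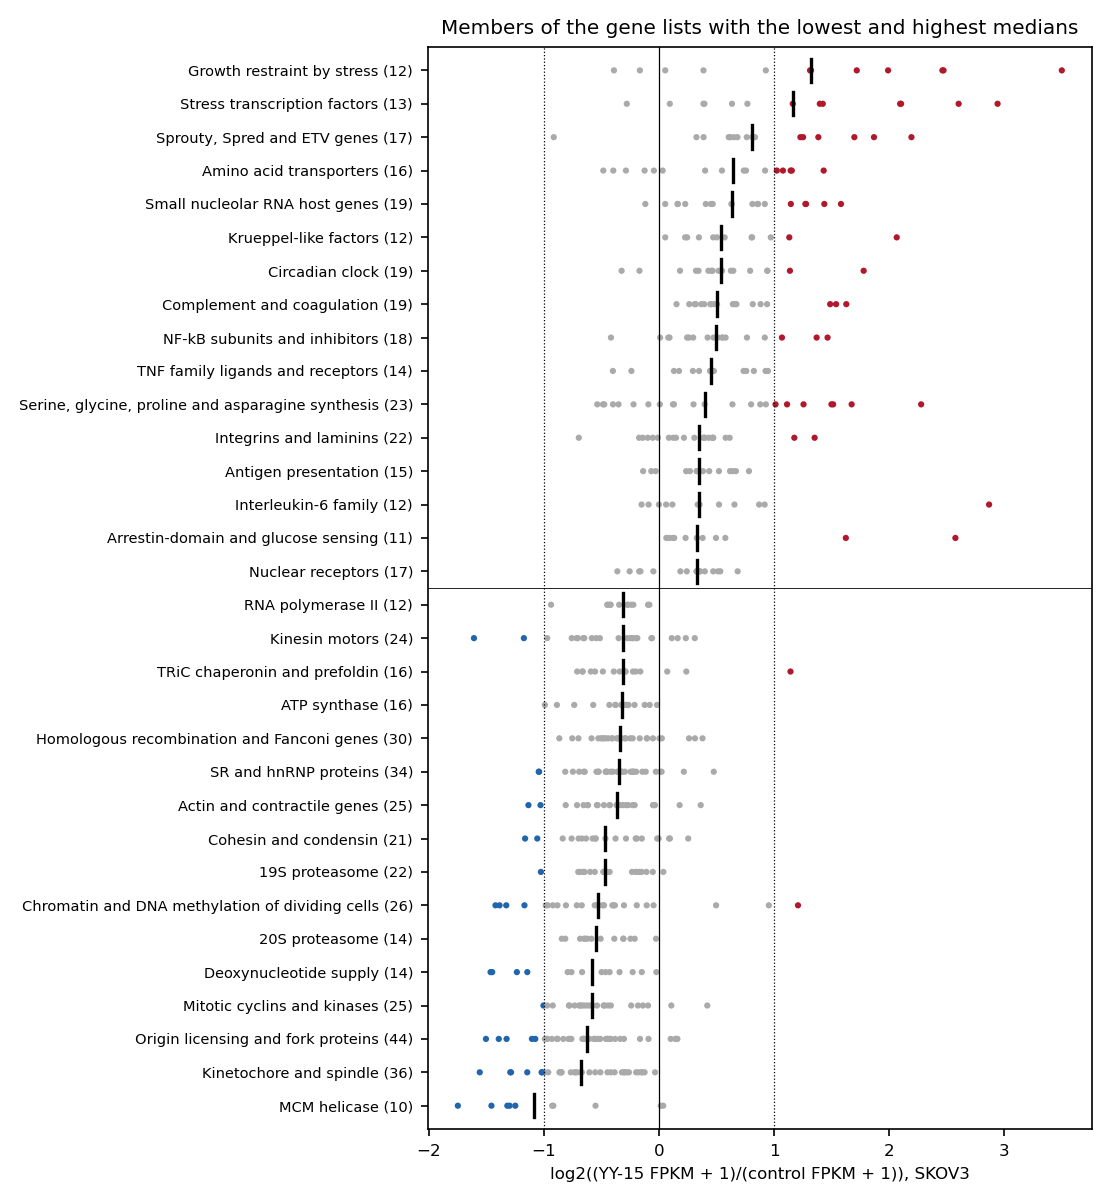
Log2 ratio of each measured member (points) of the 16 gene lists with the lowest and the 16 with the highest medians among lists of at least 10 measured members; black bars are medians, numbers in brackets count the members, red and blue points are at least 2-fold higher or lower. The MCM helicase list lies lowest, with a median of -1.09, and growth restraint by stress highest, at 1.32.

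Cytokine genes formed another group that was higher with YY-15. Of 7 measured chemokine genes (18 listed), 4 were at least 2-fold higher, and the median was 1.2. With no filter the median over the 16 found in the table was 0.04, and the other 9 of these were under 1 FPKM in both libraries. CXCL8, which attracts neutrophils, stood at 35.4 against 243 FPKM (2.75 [2.75 to 2.83]). CCL20, a ligand for CCR6 on lymphocytes and dendritic cells, was at 2.4 against 10.2 (1.72), CXCL3 had a ratio of 1.32 and CXCL2 of 1.2. CXCL1 was already at 192 FPKM in the control and reached 295 with YY-15 (0.61), under 2-fold. CCL26, an eosinophil attractant, was lower, at 1.44 against 0.615 FPKM (-0.59). In the interleukin-1 family 4 of 11 measured members were at least 2-fold higher. Among the ligands, IL1A was at 4.53 against 69.9 FPKM (3.68 [3.84 to 4.07]), IL1B at 1.76 against 11.7 (2.2 [2.58 to 2.89]) and IL18 at 9.69 against 22 (1.11). IRAK2, a kinase of the receptor complex, was at 8.41 against 22.6 (1.33). The receptor gene IL1R1 (0.29) and the adaptor MYD88 (0.00) differed little. Of 12 interleukin-6 family genes IL6 alone reached 2-fold, at 3.43 against 31.3 FPKM (2.87 [3.1 to 3.29]), while LIF (22.5 against 42, 0.87) and IL11 (0.92) stayed under it. The shared receptor subunit gene IL6ST had 0.35 and the effector STAT3 0.12.

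NF-kB genes were higher for the inducible subunits and inhibitors, and 17 of 18 measured members were above 0, with a median of 0.49. The noncanonical subunit genes RELB (6.53 against 19.8 FPKM, 1.46) and NFKB2 (10.2 against 27.8, 1.37) and the deubiquitinase TNFAIP3 (A20), which ends the signal (5.73 against 13.1, 1.07), reached 2-fold. RELA, the main activating subunit, was at 24.1 against 28.7 (0.24), and the inhibitor NFKBIA at 28.9 against 39.1 (0.42). TNF family genes had a median of 0.45 over 14 measured members (23 listed) and none reached 2-fold. The death receptor gene TNFRSF10B (DR5), a known CHOP target, came closest at 29.9 against 58.5 FPKM (0.95), and TNF was at 4.5 against 9.45 (0.92). All 19 measured complement and coagulation genes (22 listed) were above 0. The filter fixed that sign for 2 of them, which passed through the YY-15 library only. At least 2-fold higher were 3 of the 19. These were C3, the central complement protein, at 19.2 against 61.4 FPKM (1.63, overlapping GPR108 on the same strand), CFB, a protease of the alternative pathway (9.29 against 28.9, 1.54), and PLAT, a plasminogen activator (7.03 against 21.5, 1.49). HLA class I genes were higher by less, with HLA-B at 0.78 and HLA-C at 0.38. Interferon-stimulated genes were mixed, with a median of 0.15 over 22. XAF1 (0.581 against 3.38, 1.47) and IRF1 (3.15 against 7.77, 1.08) were at least 2-fold higher, and APOL1 was lower, at 104 against 60.7 FPKM (-0.76). XAF1 was among the 2 members that passed the filter through the YY-15 library only. LCN2, an iron-binding acute phase protein gene, stood at 3.98 against 17 FPKM (1.85), and SOD2, the mitochondrial superoxide dismutase gene, at 31.7 against 86.9 (1.43).

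The kappa-B element, which NF-kB dimers bind, was searched as GGANTTTCC on both strands of the same promoters. It occurred in 1.61% of all of them, in 10.7% of those of higher genes and in 0 of 87 of lower genes. It was in 4 of 6 chemokine promoters and 5 of 15 of the NF-kB list, but in 0 of 10 of the interleukin-1 family. Of 158 matches 8 shared a base with another motif described here. The stretches of the genes with the highest ratio in the interleukin-6 and in the chemokine list are shown, with the match in capitals.
IL6: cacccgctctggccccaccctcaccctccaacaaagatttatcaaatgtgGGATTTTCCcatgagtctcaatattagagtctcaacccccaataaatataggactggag
CXCL8: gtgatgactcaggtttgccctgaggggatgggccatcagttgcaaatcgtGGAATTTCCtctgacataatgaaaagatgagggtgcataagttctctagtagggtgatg
The IL6 stretch is chr7:22727078-22727186 (plus strand), with the match beginning 72 bases before the start, and that of CXCL8 is chr4:73740428-73740536 (plus strand), with 91 bases.

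Feedback genes of ERK signalling were higher with YY-15. Of 17 measured Sprouty, Spred, ETV and related genes (19 listed), 6 were at least 2-fold higher, none was at least 2-fold lower, and the median was 0.81; 2 passed through the YY-15 library only. PHLDA1, a pleckstrin homology domain gene, stood at 44.2 against 206 FPKM (2.19). ERRFI1 (MIG6), which inhibits EGFR and ERBB2 kinase activity, was at 18.8 against 71.3 (1.87 [1.88 to 1.97]). The ETS factor genes ETV5 (3.18 against 12.5, 1.7) and ETV4 (2.81 against 8.93 FPKM, 1.38), SPRY4 (0.548 against 2.68, 1.25) and MYC (13.7 against 33.5, 1.23) were the others. EPHA4 was lower, at 4.61 against 1.98 FPKM (-0.92). Among 12 measured dual-specificity phosphatase genes, DUSP5, DUSP6, DUSP1 and DUSP4 had ratios of 1.76, 1.55, 1.07 and 1.02, and the other 8 lay between -0.25 and 0.40. ERBB2 and EGFR themselves differed little (-0.09 and -0.02), while the ligand genes were higher: AREG (0.431 against 2.05 FPKM, 1.09), HBEGF (0.92), NRG1 (0.84) and TGFA (0.68). AREG passed the filter through the YY-15 library only.

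Immediate early factors had no member at 2-fold, with 7 of 10 measured genes above 0 and a median of 0.18. The dual-specificity phosphatase list had a similar median, 0.18, but 4 of its 12 measured members reached 2-fold. Of 18 AP-1, EGR and related genes 8, among them FOS, FOSB, EGR2 and NR4A1, were under 1 FPKM in both libraries, and EGR1 was lower, at 9.84 against 5.22 FPKM (-0.80). JUNB was at 81.1 against 141 (0.79). All 12 measured Krueppel-like factor genes were above 0, with a median of 0.54, but 2 reached 2-fold: KLF4 at 1.78 against 10.6 FPKM (2.06 [2.43 to 2.72]) and KLF10, a TGF-beta early response gene, at 16.9 against 38.2 (1.13). Other growth factor genes at least 2-fold higher were VEGFA (20.9 against 57.5, 1.42), INHBA (8.51 against 21, 1.21) and FGF2 (24.4 against 53, 1.09), besides GDF15, a stress hormone of the TGF-beta family, which had the highest log2 ratio of all 13294 genes and passed the filter through the YY-15 library only (0.738 against 24.8 FPKM, 3.89 [4.8 to 5.37]). Among receptor kinases outside the ERBB family, KIT was the one at least 2-fold lower, at 3.92 against 1.28 FPKM (-1.11). TXNIP, an arrestin-domain protein that binds thioredoxin and limits glucose uptake, was at 88 against 529 FPKM (2.57 [2.57 to 2.61]), and its relative ARRDC4 went from 3.17 to 11.8 FPKM between control and treated library (1.62). The YAP and TEAD target ANKRD1 had 1.65, yet the classical targets CCN1 and CCN2 had 0.41 and 0.08.

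**Figure D3:**
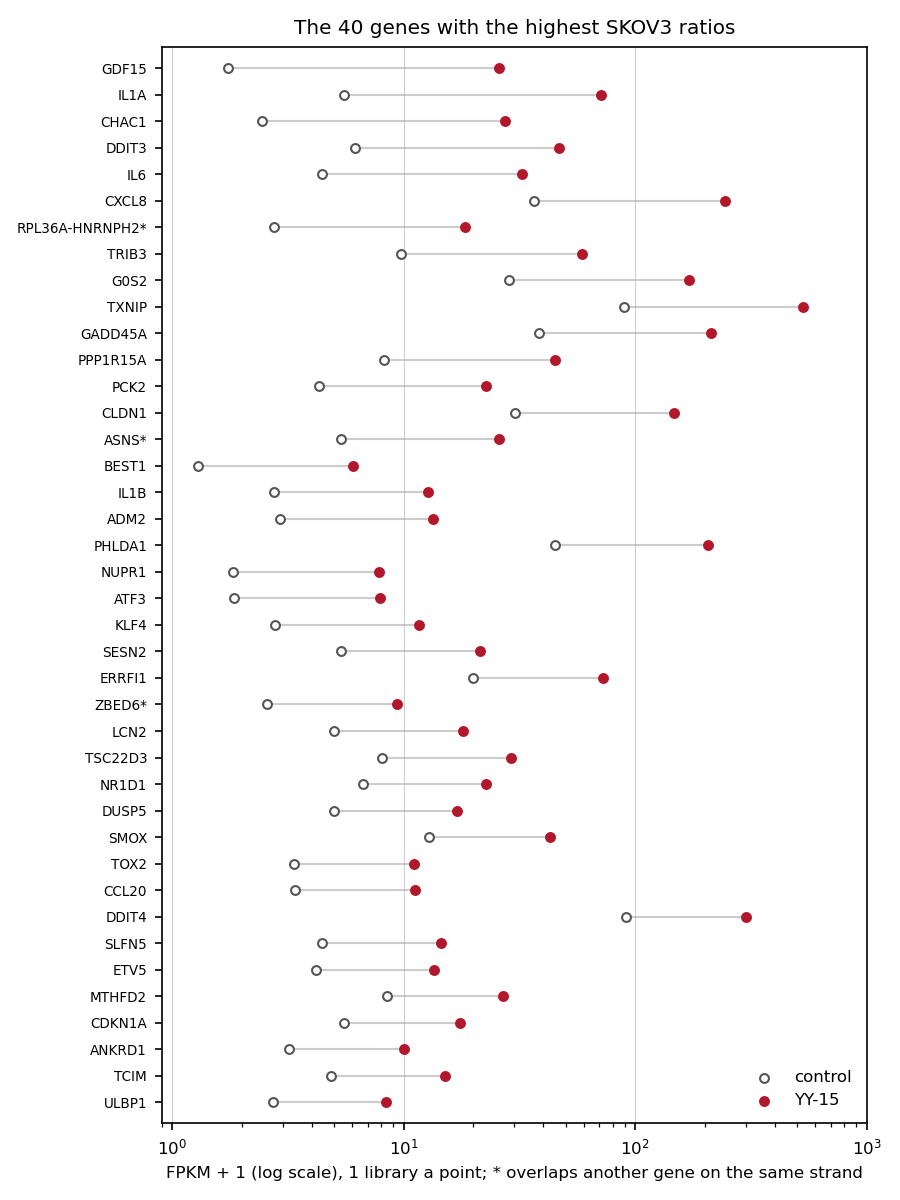
The 40 genes with the highest SKOV3 log2 ratios among those reaching 5 FPKM in a library, in order of ratio. Open circles are the control and red circles the YY-15 library, as FPKM + 1 on a log scale. An asterisk (3 of 40 genes) marks an overlap with a measured gene of the same strand. GDF15 heads the list, and CXCL8 and TXNIP reach 243 and 529 FPKM.

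Genes of DNA replication were lower with YY-15, most of all the replicative helicase. Of the 10 genes of the MCM helicase list 5 were at least 2-fold lower, and the median was -1.09, against 1.31% and 0.02 over all genes. MCM2 to MCM7 encode the ring that unwinds DNA. MCM5 was at 20.8 against 5.48 FPKM (-1.75 [-1.98 to -1.85]), MCM4 at 23.2 against 7.8 (-1.46), MCM6 at 32.2 against 12.3 (-1.32), MCM3 at 55 against 21.8 (-1.3) and MCM2 at 32.2 against 13 (-1.25). MCM7 stayed just under 2-fold, at 28.7 against 14.6 FPKM (-0.93). In bulk RNA a smaller share of dividing cells and less RNA per cell cannot be told apart. MCM9 and MCMBP, which are not subunits of that ring, had ratios of 0.01 and 0.04. Among 44 licensing and fork genes 40 were below 0, 5 were at least 2-fold lower and the median was -0.63. They were PCNA, the sliding clamp (129 against 44.9 FPKM, -1.5 [-1.57 to -1.47]), FEN1, the flap nuclease (-1.39, overlapping FADS2), ORC1 of the origin recognition complex (8.03 against 2.61, -1.32), and the GINS subunits GINS4 (10.0 against 4.13, -1.1) and GINS1 (7.12 against 2.85, -1.08). The other origin recognition subunits did not follow ORC1: ORC2, ORC4 and ORC5 had 0.10, 0.14 and 0.15.

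Enzymes of deoxynucleotide supply were below 0 in 14 of 14 genes, with 4 at least 2-fold lower and a median of -0.58. RRM2, the S phase subunit of ribonucleotide reductase, stood at 24.1 against 8.09 FPKM (-1.46), and its partner RRM1 at 46.6 against 29 (-0.67). RRM2B, the alternative subunit, was at 6.48 against 6.36 (-0.02). Thymidine kinase gene TK1 had -1.45 and thymidylate synthase gene TYMS 69.3 against 28.9 FPKM (-1.24). Nucleotide synthesis upstream of that step differed less, with a median of -0.12 over 20 genes and none at 2-fold.

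Regulators of entry into S phase were mixed. CDKN1A (p21), the inhibitor of cyclin-dependent kinases, was at 4.51 against 16.5 FPKM (1.67 [1.78 to 1.99]), while CDKN2C (p18) was at 13.6 against 4.52 (-1.4 [-1.69 to -1.47]). CDKN2A and CDKN2B were under the filter. CCNE2 was at 2.16 FPKM in the control and 0.547 with YY-15 (-1.03), so it passed through the control only, and CCNE1 at 5.42 and 6.75 (0.27). CCND1 was at 35.4 against 54.8 FPKM (0.62). Of 10 E2F family genes none reached 2-fold; E2F1, an activator, was at 24.8 against 12.7 (-0.92) and E2F7, a repressor, at 10.6 against 18.3 (0.74).

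The E2F element was searched as TTTNNCGC on both strands. It occurred in 11% of all promoters, 13.8% of those of lower genes and 10.7% of those of higher genes, so these letters differed little between the sets as a whole. They occurred in 5 of 8 promoters of the MCM list and 18 of 39 of the licensing and fork list. Of 1156 matches 15 shared a base with another motif described here. A stretch from each list is shown, with the match in capitals.
PCNA: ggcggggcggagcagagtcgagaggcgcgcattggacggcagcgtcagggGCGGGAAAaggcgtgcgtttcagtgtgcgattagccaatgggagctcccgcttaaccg
MCM6: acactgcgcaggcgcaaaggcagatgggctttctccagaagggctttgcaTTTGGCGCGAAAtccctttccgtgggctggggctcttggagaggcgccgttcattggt
The PCNA stretch is chr20:5126624-5126731 (minus strand), with the match, on the opposite strand, 59 bases before the start. The MCM6 stretch is chr2:135876538-135876645 (minus strand), and its capitals cover 2 overlapping matches on opposite strands, the first 152 bases before the start.

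Mitotic genes were lower as a group and by less than the helicase genes. All 36 kinetochore and spindle genes were below 0, with 6 at least 2-fold lower and a median of -0.68. ANLN (anillin), which organises the cleavage furrow, was at 57.8 against 19 FPKM (-1.56 [-1.64 to -1.56]). DLGAP5, a spindle assembly factor, was at 24.4 against 9.4 (-1.29), ZWINT at the kinetochore at 38.6 against 16.9 (-1.15), and ASPM and CENPI had -1.02 and -1.02; SPAG5 (22.8 against 8.72, -1.29) overlaps RSKR on the same strand. At the other end of this list SKA1 (-0.04) and HMMR (-0.15) differed little. Of 24 measured kinesin genes 2 were at least 2-fold lower, KIF20A, a motor of cytokinesis (30.4 against 9.29, -1.61), and KIFC1, which clusters spindle poles (39.4 against 16.9, -1.17). Transport kinesins such as KIF5B (-0.06) and KIF3A (0.11) stayed near 0. CCNB1, the mitotic cyclin, was at 84.3 against 41.5 FPKM (-1.0) and was the only one of 25 mitotic cyclin and kinase genes at 2-fold; CDC25B, a phosphatase that activates its kinase, was at 107 against 144 (0.42). The condensin subunit genes NCAPD2 (26.3 against 11.2, -1.16) and NCAPH (11.5 against 5.0, -1.06) were at least 2-fold lower, and the cohesin genes SMC3 (-0.00) and STAG2 (0.09) were not.

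The CHR (cell cycle homology region), through which mitotic genes are repressed outside G2 and M phase, was searched as TTTGAA on both strands. These letters occurred in 9.31% of all promoters, in 25.3% of the 87 promoters of lower genes and in 8.26% of the 121 of higher genes. They were in 21 of 31 promoters of the kinetochore and spindle list and in 1 of 39 of the licensing and fork list. Of 983 matches 24 shared a base with another motif described here. The stretches of 2 of its lowest members are shown, each holding 2 matches in capitals.
ANLN: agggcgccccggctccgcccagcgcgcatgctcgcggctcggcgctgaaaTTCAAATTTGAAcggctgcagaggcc
DLGAP5: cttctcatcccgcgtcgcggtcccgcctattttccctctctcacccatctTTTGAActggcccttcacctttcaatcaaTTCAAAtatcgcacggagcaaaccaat
The ANLN stretch is chr7:36389786-36389861 (plus strand) and its first match begins 26 bases before the start, and the DLGAP5 stretch is chr14:55191668-55191773 (minus strand), with 138 bases.

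Chromatin genes of dividing cells were lower with exceptions. Of 26 genes 4 were at least 2-fold lower and 1 higher, with a median of -0.53. LMNB1, a nuclear lamin whose loss marks arrested cells, was at 50.6 against 18.3 FPKM (-1.42 [-1.51 to -1.41]). UHRF1, which guides maintenance DNA methylation, was at 19.6 against 6.89 (-1.39), the histone chaperone gene ASF1B at 30.9 against 11.7 (-1.33) and the histone variant gene H2AX at 145 against 64 (-1.17). HMGA1, an architectural chromatin protein gene, went the other way, at 146 against 338 FPKM (1.21 [1.2 to 1.24]). None of 30 measured recombination and Fanconi genes reached 2-fold; their median was -0.34, with FANCD2 at 7.6 against 3.72 (-0.87).

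Tubulin genes were lower for nearly all measured alpha and beta members. The alpha genes had a median of -0.90 over 5 measured members and the 7 measured beta genes -1.0. TUBA1B was at 682 FPKM in the control and 272 with YY-15 (-1.32 [-1.33 to -1.31]), TUBA1C at 248 and 143 (-0.79), and TUBA1A at 134 and 71.6 (-0.90). TUBB4B was at 340.3 and 125 (-1.44 [-1.46 to -1.41]), TUBB at 619.8 and 311 (-0.99) and TUBB6 at 70.7 and 34.9 (-1.0). TUBB2A and TUBB3, at 24.8 against 11.3 (-1.07) and 15.1 against 6.17 FPKM (-1.17), were also at least 2-fold lower. Tubulin genes share long stretches of sequence, so how reads were split between them is uncertain, but the ratios had the same sign in 11 of these 12 genes. TUBAL3, the exception, was at 1.48 against 1.55 FPKM (0.04). The gamma, delta and epsilon genes and their complexes had a median of -0.19. Of the genes that fold tubulin, the TRiC chaperonin subunit CCT3 was at 72.5 against 45.3 FPKM (-0.67), and the prefoldin subunit PFDN2 at 25.9 against 58.4 (1.14), the one member of 16 at 2-fold. TTC5, which triggers decay of tubulin mRNA when free tubulin is in excess, was at 1.36 against 1.22 (-0.09). STMN1, which binds tubulin dimers, was at 49.6 against 25.7 (-0.92). ACTB was also lower, at 636 against 311 FPKM (-1.03 [-1.04 to -1.01]), more than ACTG1, at 1715 against 1231 (-0.48). MYL6 (72.9 against 32.6, -1.13) overlaps MYL6B. ARHGEF2, a signalling gene whose product is held inactive on microtubules, was higher, at 9.02 against 27.2 FPKM (1.49).

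Chaperone genes were lower for a few members. Of 17 measured HSP70 genes 3 were at least 2-fold lower (median -0.25, 4 above 0), of 22 HSP90 and co-chaperone genes 1 (median -0.27, 6 above 0) and of 35 measured DNAJ genes 1 (median -0.01, 17 above 0). HSPA8, the constitutive HSP70, was at 282 against 70.7 FPKM (-1.98 [-2.01 to -1.97]). HSP90AA1, a cytosolic HSP90, was at 342 against 107 (-1.66 [-1.68 to -1.65]). HSP90AB1, the other cytosolic HSP90 gene, was at 526 against 386 FPKM (-0.45). HSPA1A and HSPA1B, near-identical in sequence so that the split of reads between them is uncertain, were at 73.3 against 19.1 (-1.89) and 65 against 17.2 FPKM (-1.86). DNAJA1, an HSP70 partner, was at 50.1 against 23.1 (-1.08), and HSPE1, the mitochondrial HSP60 partner, at 24.9 against 10.6 (-1.16). HSPA9, the mitochondrial HSP70, was higher, at 35.6 against 52.5 (0.55), and HSF1 itself was at 18.5 against 23.4 (0.33). In the endoplasmic reticulum HSPA5 (BiP) was at 133 against 118 FPKM (-0.17), and the median over 31 measured folding genes was -0.12. XBP1, a factor of the unfolded protein response, was the one of them at 2-fold, at 23.8 against 56 (1.2). All 14 genes of the 20S proteasome were below 0 (median -0.55), as were 21 of 22 of its 19S cap (median -0.47). PSMD1 of the cap reached 2-fold, at 15.8 against 7.23 FPKM (-1.03). NFE2L1, the factor that induces these genes when the proteasome is impaired, was at 63.4 against 115 (0.85), and the segregase gene VCP at 88.3 against 45.9 (-0.93). The 27 autophagy genes above 0, of 33 measured, included SQSTM1, a cargo receptor (36.6 against 69.1, 0.90), and none reached 2-fold.

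The heat shock element was searched as GAANNTTC, a sequence whose reverse complement is the same. It occurred in 4.66% of all promoters, in 8.05% of those of lower genes, in 8.26% of those of higher genes, and in 4 of 16 promoters of the HSP70 list and 4 of 17 of the HSP90 list. Of 471 matches 32 shared a base with another motif described here. The stretches of the lowest HSP70 genes are shown, with the match in capitals.
HSPA8: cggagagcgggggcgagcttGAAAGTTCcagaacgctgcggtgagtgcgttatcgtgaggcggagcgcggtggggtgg
HSPA1A: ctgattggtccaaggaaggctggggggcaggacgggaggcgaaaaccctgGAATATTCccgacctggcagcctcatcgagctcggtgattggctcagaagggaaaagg
The HSPA8 stretch is chr11:123062309-123062386 (minus strand) and its match begins 230 bases before the start. That of HSPA1A is chr6:31815387-31815494 (plus strand), with 106 bases.

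**Figure D4:**
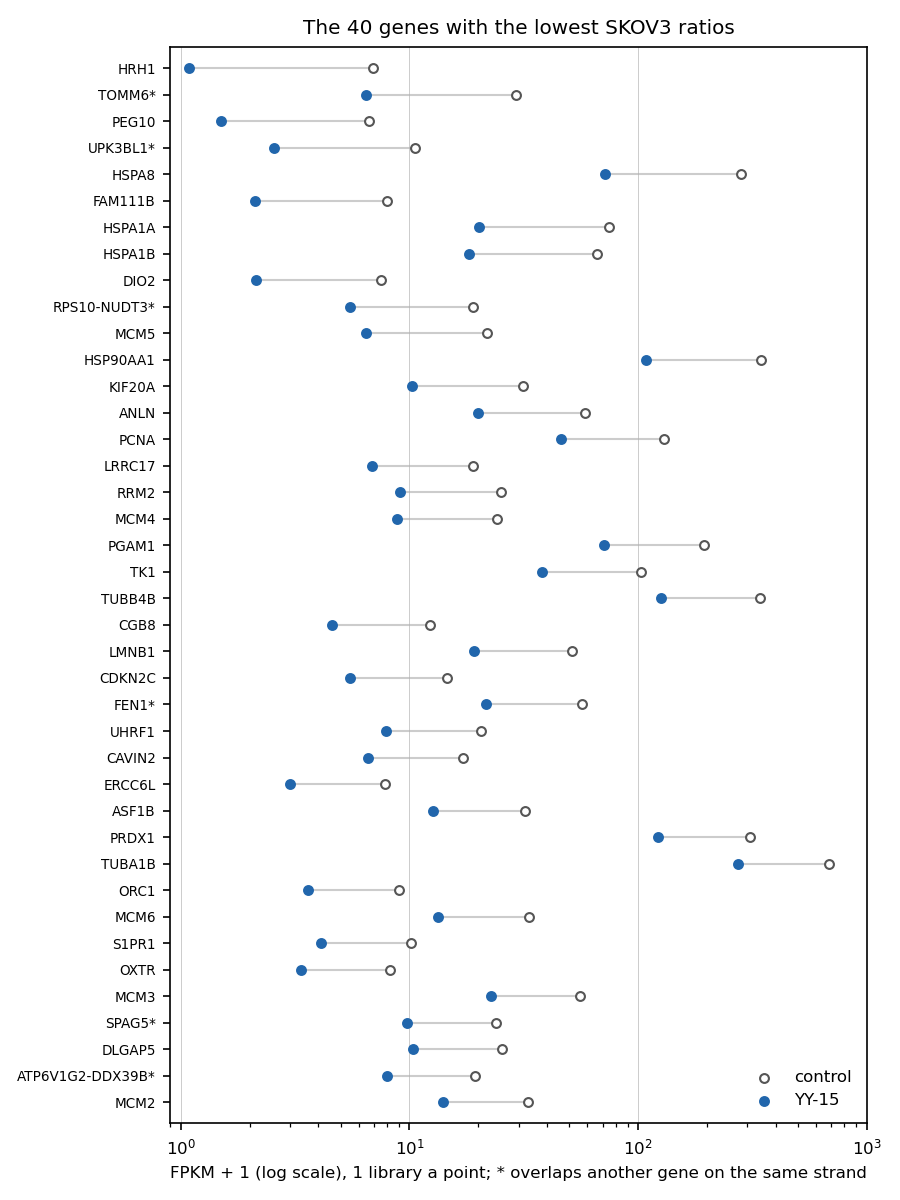
The 40 genes with the lowest SKOV3 log2 ratios among those reaching 5 FPKM in a library, in order of ratio. Open circles are the control and blue circles the YY-15 library, as FPKM + 1 on a log scale. An asterisk (6 of 40 genes) marks an overlap with a measured gene of the same strand. Replication and mitosis genes fill much of the list, while HSPA8, HSP90AA1, TUBB4B, PRDX1 and TUBA1B are its most abundant genes in the control.

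Metabolic genes were mostly lower by small amounts. Glycolysis genes had a median of -0.29 over 28, with PGAM1, phosphoglycerate mutase, as the only one at 2-fold (194 against 70.1 FPKM, -1.45). LDHA, lactate dehydrogenase, was at 739.7 against 417 (-0.83; it overlaps another gene), and GAPDH at 1397 against 1304 (-0.10). Nuclear genes of complex I, of complexes III and IV and of ATP synthase had medians of -0.23, -0.28 and -0.32. The 13 protein genes of the mitochondrial genome had -0.29; they held 4.09% of the estimated counts in the control and 3.68% in the YY-15 library. PRDX1, a peroxiredoxin, was the one antioxidant gene at least 2-fold lower, at 307 against 122 FPKM (-1.33 [-1.36 to -1.3]), and the NRF2 target NQO1 was at 65.2 against 40.4 (-0.68). Of 16 polyamine genes 7 were below 0, the median was 0.10 and 1 passed through the YY-15 library only. At least 2-fold higher were 2 breakdown genes, SMOX at 11.9 against 41.6 (1.73) and SAT1 at 45.3 against 108 (1.23). ODC1, the entry step of synthesis, had 0.33. Cholesterol synthesis genes had a median of -0.03 over 27 measured members, with none at 2-fold. G0S2, an inhibitor of the fat lipase PNPLA2, had the highest ratio of the lipid list (27.4 against 169 FPKM, 2.59), and PNPLA2 was at 35.3 against 48.7 FPKM (0.45). FTH1, the ferritin heavy chain, showed the largest gain in FPKM of the protein-coding genes, from 3311 in the control to 4900.2, yet a log2 ratio of 0.57.

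RNA processing genes were lower in most cases. Of 34 SR and hnRNP genes 30 were below 0 (median -0.35), with SRSF2 at 128 against 61.6 FPKM (-1.05) and HNRNPM at 62.7 against 29.9 (-1.04). Of 37 spliceosome genes 36 were below 0 (median -0.31), with LSM3 at least 2-fold lower (7.9 against 3.4, -1.02), and all 12 RNA polymerase II subunit genes (median -0.31). KPNA2, an import adaptor, was at 61.2 against 29 FPKM (-1.05). Clock genes were higher, 17 of 19 measured members above 0 with a median of 0.53: NR1D1 (REV-ERB alpha), the repressor, at 5.64 against 21.7 (1.78 [1.85 to 2.05]), and NFIL3 at 13.2 against 30.1 (1.14), reached 2-fold. PER1, DBP and BMAL1 had 0.94, 0.94 and 0.62, and CLOCK -0.17. The zinc finger genes named ZNF on chromosome 19 had a median of -0.04 over 235, against 0.10 over 216 elsewhere.

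Of 16 measured BCL2 family genes 2 were at least 2-fold higher and none lower, with a median of 0.22 and 4 below 0. PMAIP1 (NOXA), which binds MCL1, was at 23.8 against 59.4 FPKM (1.28) and BBC3 (PUMA), another BH3-only member, at 1.84 against 5.14 (1.11). The survival gene BCL2L1 was at 41.7 against 77.9 (0.89) and MCL1 at 54.2 against 61.7 (0.18). None of 24 measured caspase and inhibitor genes reached 2-fold, and their median was -0.13.

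Surface and matrix genes held a few large differences. CLDN1, a tight junction claudin, was at 29.1 against 146 FPKM (2.29 [2.3 to 2.37]), while the keratin gene KRT8 was at 247 against 116 (-1.08) and its partner KRT18 at 104 against 97.7 (-0.09). The matrix genes FN1 (169.9 against 342, 1.01) and LAMB3 (56.1 against 145, 1.35), the integrin gene ITGB3 (23.4 against 54.1, 1.17) and the collagenase genes MMP1 (58.5 against 151, 1.35) and MMP13 (66.5 against 147, 1.13) were at least 2-fold higher. Among 22 measured integrin and laminin genes 2 reached 2-fold, with a median of 0.35. Of 20 measured metalloproteinase and inhibitor genes 2 did, with a median of 0.08, and 3 passed through the YY-15 library only. The median over 29 measured collagen and cross-linker genes was 0.16. Among 33 measured G protein-coupled receptor genes 3 were at least 2-fold lower and none higher. HRH1, the histamine H1 receptor, was at 5.91 against 0.086 FPKM (-2.67 [-6.64 to -5.59]). S1PR1, a receptor for sphingosine 1-phosphate, was at 9.12 against 3.1 (-1.3), and OXTR, the oxytocin receptor, at 7.25 against 2.35 (-1.3). PEG10, an imprinted gene, was the only one of 13 measured imprinted genes at 2-fold (5.66 against 0.496, -2.16). Surface marker CD24 was at 551 against 319.5 FPKM (-0.79), and CD44 at 46.6 against 70.5 (0.59).

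Other lists held few genes at 2-fold. In the hypoxia list EPAS1 (HIF-2 alpha) was at 9.22 against 24.7 FPKM (1.33), beside VEGFA and ERRFI1, and the median over 19 measured members was 0.30. SERPINA1, the elastase inhibitor alpha-1 antitrypsin, was at 3.92 against 9.34 (1.07). ABCC3, an organic anion exporter, was at 9.36 against 21.6 (1.13), and ALOX5AP, which presents arachidonic acid to lipoxygenase, at 1.73 against 4.75 (1.07). The calcium-binding protein gene S100A2 was lower, at 62.4 against 28 FPKM (-1.13). No member reached 2-fold among 35 lysosome genes (median 0.17), 33 ribosome assembly genes (0.02), 28 nuclear pore genes (-0.20), 21 ID and TGF-beta genes (0.16), 21 ubiquitin and segregase genes (-0.11), 27 measured Notch and Wnt genes (0.07), 20 semaphorin, plexin and neuropilin genes (0.16) or 17 nuclear receptor genes (0.33).

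Genes outside the lists also reached the extremes. BEST1, a chloride channel gene, was at 0.284 against 5.03 FPKM (2.23 [3.92 to 4.36]) and passed the filter through the YY-15 library only. It overlaps FTH1 (3311 against 4900 FPKM) on the opposite strand and is uncertain, since counting may not have been stranded. ADM2, a peptide hormone gene, was at 1.92 against 12.4 (2.2), and TSC22D3 (GILZ), an anti-inflammatory leucine zipper gene, at 7.09 against 28.1 (1.85). ULBP1, a ligand of the NKG2D receptor of natural killer cells, was at 1.71 against 7.37 (1.63), and SLFN5, TOX2 and TCIM had ratios of 1.71, 1.72 and 1.63. ZBED6 (1.56 against 8.32, 1.86) lies within ZC3H11A and is uncertain. At the low end FAM111B, a protease gene, was at 6.94 against 1.11 FPKM (-1.91), DIO2, a deiodinase, at 6.54 against 1.12 (-1.83), ERCC6L, a translocase of anaphase DNA bridges, at 6.83 against 2.01 (-1.38), CAVIN2, a caveolar protein gene, at 16.2 against 5.58 (-1.38), and LRRC17 at 18 against 5.83 (-1.47). CGB8 (11.4 against 3.61, -1.42) has near-identical neighbours among the chorionic gonadotropin genes. TOMM6, UPK3BL1, RPS10-NUDT3 and ATP6V1G2-DDX39B, among the 40 lowest, and RPL36A-HNRNPH2, among the 40 highest, overlap other measured genes and are uncertain.

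The pathway labels in the deposited table group the genes in another way. Among 268 KEGG pathways with at least 20 measured members, DNA replication had the lowest median, -0.66, with 7 of 34 genes at least 2-fold lower. Proteasome (-0.45), mismatch repair (-0.44) and homologous recombination (-0.33) came next. The highest medians were those of cytokine interaction with viral proteins (0.72, 7 of 22 at least 2-fold higher), complement and coagulation (0.44, 4 of 25) and circadian rhythm (0.37, 3 of 30). Aminoacyl-tRNA biosynthesis, which takes cytosolic and mitochondrial synthetases together, had -0.07, with 6 of 43 at least 2-fold higher. These pathways share genes with the lists above and are not independent of them.

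Most genes at the SKOV3 extremes were near 0 in ES2. Of the SKOV3 genes at least 2-fold higher, 155 passed the filter in ES2, where 5 were at least 2-fold higher and 5 lower, against 0.348% and 0.486% of all ES2 genes. Of 123 SKOV3 lower genes measured in ES2, 7 were at least 2-fold lower there and 3 higher. The 8 genes with opposite directions were 6 pseudogenes or copies of small RNA genes, 1 gene with no symbol and the read-through gene RPL36A-HNRNPH2. The median ES2 log2 ratios of the higher and lower SKOV3 genes were 0.05 and -0.00, beside -0.02 over all ES2 genes. Among the 80 extremes of SKOV3, 67 were measured in ES2 and 5 of them reached 2-fold there. BEST1 (1.37) and FAM111B (-1.02) had the same sign in both lines, and so had the uncertain read-through genes RPS10-NUDT3 (-2.19) and ATP6V1G2-DDX39B (-1.62). BEST1 is uncertain too, because it overlaps the abundant FTH1 on the opposite strand. TXNIP had an ES2 ratio of 0.49, CLDN1 of 0.41, DDIT3 of 0.13, CXCL8 of -0.05, PCNA of -0.13, HSPA8 of 0.03 and TUBA1B of 0.21. The stress transcription factor list had a median of -0.03 in ES2 and the MCM helicase list -0.11. Whether the lines differ in their response was not tested, since each ratio rests on 1 library a side, and whether both lines received the same dose rests on the column headings alone.

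**Figure D5:**
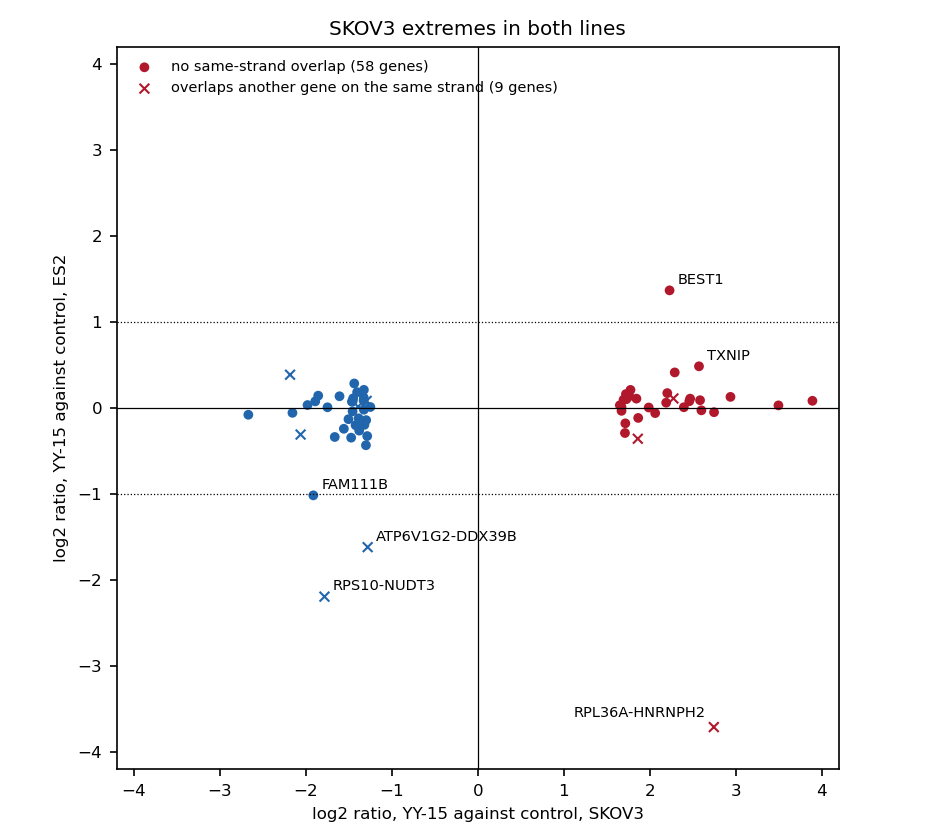
Log2 ratio of YY-15 against control in SKOV3 (x axis) and ES2 (y axis) for the 67 genes among the 40 highest and 40 lowest of SKOV3 that passed the filter in ES2, red for higher and blue for lower in SKOV3. Crosses are genes overlapping a measured neighbour of the same strand, and dotted lines mark 2-fold in ES2. Most points lie near 0 in ES2, with 62 of the 67 under 0.5 in size, and RPL36A-HNRNPH2 has opposite signs.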

How the data were processed

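RNA of SKOV3 and ES2 cells, with or without YY-15 for 48 h, was sequenced as 1 library per group. Per the submitters' processing notes, the software included HISAT2 2.2.1, cutadapt 1.9, edgeR, DESeq2 and StringTie 2.1.6 in roles that are not stated. These notes also name mm10, a mouse build, while the identifiers in the table are those of human Ensembl genes. The authors deposited an FPKM value and a count for each gene in each library, per the file headers. The deposited counts are whole but taken as estimated counts: 214 SKOV3 control genes and 212 of the treated library pair a count of 1 with a nonzero FPKM below 0.001. The sources used here do not say whether counting was stranded, so a gene and its antisense partner may share reads. Near-identical copies and genes overlapping a measured neighbour of the same strand are called uncertain where named. Overlaps on opposite strands were not searched for, and BEST1 is the one named as uncertain for that reason.

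For the ratios 1 was added to each FPKM, genes below an FPKM of 1 in both SKOV3 libraries were left out, and 2-fold is a log2 ratio of 1 in size. Intervals are exact Clopper-Pearson 95% intervals from the estimated counts and cover counting error only. PCR copies are not independent molecules, so the intervals may be too narrow even for that error. Where a library has a count of 0, the interval has no limit on that side. The calculation was tested on simulated data. The members and the 104 gene lists were chosen with earlier results of these data known. Named genes were the 40 highest and 40 lowest ratios at an FPKM of 5 or more, the 15 largest gains and losses in FPKM, members of the lists, and the 10 genes per direction with the largest gap to ES2, leaving out genes without a symbol, small RNAs, antisense names, pseudogenes and Y-linked genes. The text gives those needed to describe each list, and a few genes are not reported here. Promoters are RefSeq sequences of GRCh38.p14, matched by symbol. Alternatives were pseudocounts of 0.1 and 5, no filter, a stricter filter (FPKM 5), TPM, estimated counts scaled to a sum of 1000000, centring on the median and, after the data were seen, leaving out overlapping genes and keeping protein-coding genes only. Python 3.11.15, numpy 2.4.6, pandas 2.3.3, scipy 1.17.1 and matplotlib 3.10.9 were used.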

Additional observations from a re-analysis of the deposited data

Results flagged for a closer look

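RPL36A-HNRNPH2 differed in opposite directions in the 2 lines, with a log2 ratio of 2.75 in SKOV3 and -3.71 in ES2. It is a read-through gene that overlaps RPL36A and HNRNPH2 on the same strand, and how reads were split between the 3 is uncertain. The difference between the lines was not tested.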

How the results depend on the processing

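The counts of 221 higher and 174 lower genes depended on the scale. They were 548 and 365 at a pseudocount of 0.1, and 93 and 58 at 5. On the TPM scale they were 1115 and 748, and from estimated counts scaled to a sum of 1000000 they were 458 and 267. Values sum to more on both scales, so the added 1 weighs less. The filter of 1 was also applied on these scales, so genes under 1 FPKM in both libraries could enter. How much each of these contributed was not tested. A filter at an FPKM of 5 left 150 higher and 114 lower genes. Centring on the median gave 211 and 186. No filter gave 221 and 174, which was fixed in advance. With 1 added, a gene under 1 FPKM in both libraries cannot reach 2-fold. Among alternatives chosen after seeing the data, leaving out genes that overlap another on the same strand gave 185 and 128, and protein-coding genes alone gave 156 and 107. Centring, the TPM scale and scaled estimated counts changed the sign of none of 202 genes at an extreme or at least 2-fold different in a list. These genes were chosen for large differences, so that result was fixed by the choice and is no check on the signs. Over all 2030 measured list members, centring, the TPM scale and scaled estimated counts changed the sign of 41, 81 and 13 genes. All of those had log2 ratios of 0.047 or less in size.

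Among lists whose median was at least 0.1 in size, those that changed sign at the filter of FPKM 5 were those of prostaglandin synthesis (-0.0056), the MYC network (-0.042), CDK inhibitors (-0.187) and the line markers (-0.0887), and in the table with no filter that of fibroblast markers (0.0226). The other lists of that size kept the sign of their median under these settings, but several medians shrank. With no filter, where members under 1 FPKM count too, that of chemokines was 0.04, of amino acid transporters 0.17, of ERBB receptors and ligands 0.24 and of the TNF family 0.17. At a pseudocount of 5, that of chemokines was 0.76, of growth restraint 0.84, of amino acid transporters 0.35, of small nucleolar RNA hosts 0.33 and of licensing and fork genes -0.40. No paired analysis was possible because each group holds 1 library, and for the same reason no library could be left out. Depth limits the genes of low FPKM most, and with 1 library a side the spread between cultures is unknown.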
